A study of Mus musculus with 2 samples.

Results

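The genes described here make, break down and sense cyclic nucleotides: the adenylyl cyclases, the cyclic nucleotide phosphodiesterases, the subunits of protein kinase A (PKA) and the A-kinase anchoring proteins. Members were chosen by symbol alone, as all genes named Adcy, Pde, Prkac, Prkar or Akap with a number or subunit letter and at least 1 transcript typed as protein-coding, except Pde10a. The rule took in 53 of the 55536 annotated genes, on 20 chromosomes: 21 phosphodiesterases, 16 anchoring proteins, 10 cyclases, 4 PKA regulatory subunits and 2 PKA catalytic subunits. The tissue was the cerebral cortex of the left side, taken at an age of 2 months from female mice of the strain B6CASTF1/J, first-generation hybrids of a C57BL/6J and a CAST/EiJ parent, and its total RNA was sequenced. The series holds this 1 group, with no other genotype or treatment, in 2 libraries called replicate 1 and replicate 2, each made from 300 ng of RNA to which ERCC spike-ins had been added. Both libraries carry the same donor entry and no label says in words that they are separate animals, so the spread between them may be technical. Every result is therefore a level, a share within a family, or a difference between these 2 libraries.

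Cyclic AMP is made from ATP by adenylyl cyclases, which stimulatory G proteins switch on and inhibitory ones restrain, and is destroyed by phosphodiesterases, some of which also or only cleave cyclic GMP. Its main receptor in the cell is PKA, a tetramer in which a pair of regulatory subunits holds a pair of catalytic subunits inactive until cyclic AMP binds. Anchoring proteins tie PKA to synapses, organelles and the cytoskeleton, often beside a phosphodiesterase. In the cortex this pathway is best known for its part in synaptic plasticity and memory.

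The unit of level is TPM, which divides a gene's reads by its length and expresses the result as a share of the whole library, as the authors deposited it per gene. Of the 53 members, 45 reached 1 TPM in both libraries, 84.9%, against 58.8% of the 22015 nuclear protein-coding genes. A mean of at least 10 TPM was reached by 35 members (66.0%, against 37.6% of protein-coding genes) and at least 100 TPM by 7 (13.2%, against 4.11%). The median member had 22.2 TPM, against 3.71 TPM for protein-coding genes, and the members held 0.533% of protein-coding TPM in replicate 1 and 0.529% in replicate 2. Most of the pathway was thus present in this tissue, and the spread was wide within each family except the 2 PKA catalytic subunits. Replicate 1 held 31196858 and replicate 2 held 32292150 expected counts, of which 205911 and 209545 fell on members. For a gene of 1 kb effective length, a count of 0 allows a level of up to 0.147 TPM in replicate 1 and up to 0.137 TPM in replicate 2, the worth of 3 counts.

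**Figure D1:**
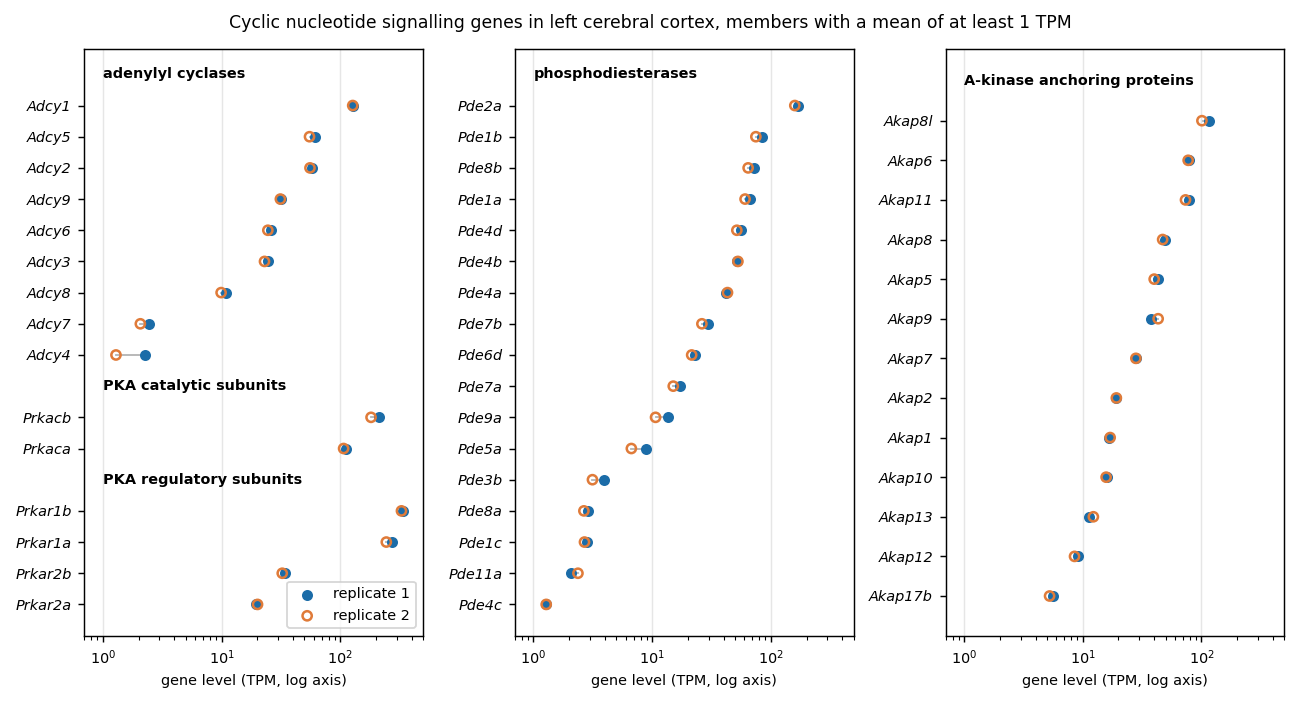
Gene level in TPM on a log axis for the 45 members with a mean of at least 1 TPM, 1 row per gene, grouped by role. Filled points are replicate 1 and open points replicate 2. The levels run from 1.27 and 1.28 TPM (Pde4c) to 338 and 328 TPM (Prkar1b), and the distance between the points of a gene is small beside the distance between genes.

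The regulatory subunits of PKA summed to 644 ± 26.5 TPM (SD, n = 2 libraries), the highest mean of the 5 groups, with a range that overlapped that of the phosphodiesterases (624 ± 34.3 TPM, Pde10a not included). What tells their types apart is the inhibitor site, the stretch that lies in the catalytic cleft: type II subunits have a serine there that the kinase phosphorylates, while type I subunits have a residue that cannot accept phosphate. The coding sequence around that site is shown from the leading transcript of each gene in GENCODE M21, 5′ to 3′, with the codon of the decisive residue in capitals.
Prkar1b-201: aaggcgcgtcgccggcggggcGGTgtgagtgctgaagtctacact
Prkar1a-201: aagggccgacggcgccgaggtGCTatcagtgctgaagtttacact
Prkar2b-202: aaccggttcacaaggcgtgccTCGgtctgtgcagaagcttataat
Prkar2a-201: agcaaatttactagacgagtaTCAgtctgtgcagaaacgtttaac
Counted from the start codon, the capitals are codon 99 of Prkar1b, a glycine, codon 99 of Prkar1a, an alanine, codon 112 of Prkar2b, a serine, and codon 97 of Prkar2a, a serine. The Prkar1b stretch lies within 1 coding exon at chr5:139108514-139108558 on the minus strand and the Prkar1a stretch within 1 coding exon at chr11:109660095-109660139 on the plus strand (mm10), while both type II stretches cross an exon junction. Over the whole coding sequence, Prkar1b and Prkar1a were identical at 75.2% of aligned bases and Prkar2b and Prkar2a at 71.9%, whereas Prkar1a and Prkar2a shared 58.9%.

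Prkar1b, a type I subunit known for its enrichment in neurons (ENSMUSG00000025855.13, chr5:139017306-139150001, minus strand), was the highest member of all, with 338 TPM in replicate 1 and 328 TPM in replicate 2, rank 118 among protein-coding genes. Prkar1a, the type I subunit found in most cells (ENSMUSG00000020612.16, chr11:109649405-109669656, plus strand), had 271 and 245 TPM. The ranges of the pair did not overlap, and Prkar1b exceeded Prkar1a 1.24-fold in replicate 1 and 1.34-fold in replicate 2. Prkar2b, the type II subunit of neurons and fat, followed with 34.3 and 32.5 TPM. Prkar2a, the more widely found type II subunit, had 19.7 and 20.1 TPM. Prkar2b exceeded Prkar2a 1.74-fold and 1.62-fold, again without overlap. The type I genes, Prkar1b and Prkar1a, together made up 91.9% and 91.6% of regulatory subunit TPM over all their transcripts, or 11.3 and 10.9 times the RNA of type II.

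The catalytic subunits, which phosphorylate the targets, summed to 307 ± 26.1 TPM. Prkacb (ENSMUSG00000005034.15, chr3:146729574-146812990, minus strand) had 213 and 182 TPM, and Prkaca (ENSMUSG00000005469.10, chr8:83972993-83996443, plus strand) had 112 and 107 TPM. Prkacb exceeded Prkaca 1.90-fold in replicate 1 and 1.70-fold in replicate 2, with no overlap of their ranges, and their coding sequences were identical at 80.2% of bases. Regulatory over catalytic subunit TPM was 2.04 in replicate 1 and 2.17 in replicate 2. This compares RNA of subunits that pair 1 to 1 in the enzyme and does not measure protein.

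Prkacb is read from several first exons, which give catalytic subunits with different N termini. The sequences show where the first exon of each of its highest transcripts meets the shared coding sequence: capitals are bases that belong to that transcript's own start, lower case the stretch common to both.
Prkacb-202: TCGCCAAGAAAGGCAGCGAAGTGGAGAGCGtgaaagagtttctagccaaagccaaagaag
Prkacb-203: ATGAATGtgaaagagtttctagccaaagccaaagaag
The Prkacb-202 stretch covers coding bases 17 to 76, the last 30 of its 46 own coding bases and the start of the shared part; Prkacb-203 is shown from its start codon and has only 7 own coding bases. Prkacb-202 held 46.3% and 48.6% of the gene's transcript TPM and Prkacb-203 held 28.5% and 31.1%. These shares come from tables based on alignments. In further deposited tables, derived from the reads and an index and called read-based here, Prkacb-202 also led, with 33.4% and 37.6%. There Prkacb-203 had 18.2% and 19.4% and stood behind Prkacb-205, which had a mean of 29.1%. Prkacb-205 is not typed as protein-coding, and protein-coding transcripts held 71.1% and 70.1% of the gene's read-based TPM. Of the pair shown, the form with the longer start was the more abundant in both libraries and both quantifications.

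The adenylyl cyclases summed to 338 ± 9.62 TPM, and 9 of 10 reached 1 TPM. Adcy1 (ENSMUSG00000020431.5, chr11:7063489-7178506, plus strand), the neuronal cyclase that calcium and calmodulin stimulate, had 127 TPM in each library, rank 630 among protein-coding genes. It held 37.7% ± 1.13 of cyclase TPM and exceeded Adcy2, a cyclase that calcium does not regulate directly, 2.21-fold and 2.29-fold. Adcy5 and Adcy6, which calcium inhibits, had 60.8 and 55.1 TPM and 26.4 and 24.6 TPM. Adcy2 had 57.4 and 55.6 TPM, so that it lay between the libraries of Adcy5, and these genes changed places from one library to the other. The coding sequences of Adcy5 and Adcy6 were identical at 74.4% of aligned bases.

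Adcy9, a cyclase that forskolin activates poorly, followed with 31.9 and 31.3 TPM. Adcy3, best known as the odour-signalling cyclase and as a marker of neuronal cilia, had 24.9 and 23.0 TPM, which overlapped the range of Adcy6. Adcy8, also stimulated by calcium and calmodulin, had 10.9 and 9.92 TPM, 11.6-fold and 12.8-fold below Adcy1. These mid-range cyclases thus stood well apart from both Adcy1 and the lowest members. Adcy7 had 2.46 and 2.07 TPM and Adcy4 had 2.25 and 1.29 TPM, with overlapping ranges, and the soluble, bicarbonate-sensitive cyclase Adcy10 was listed at 0.10 and 0.27 TPM.

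By mode of regulation, calcium-stimulated cyclases (Adcy1, Adcy3, Adcy8) held 47.3% and 48.5% of cyclase TPM. Calcium-inhibited ones held 25.3% and 24.1%, calcium-insensitive ones (Adcy2, Adcy4, Adcy7) 18.1% and 17.8%, and Adcy9 9.27% and 9.47%. This order of the classes held in both libraries and also in the read-based tables.

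**Figure D2:**
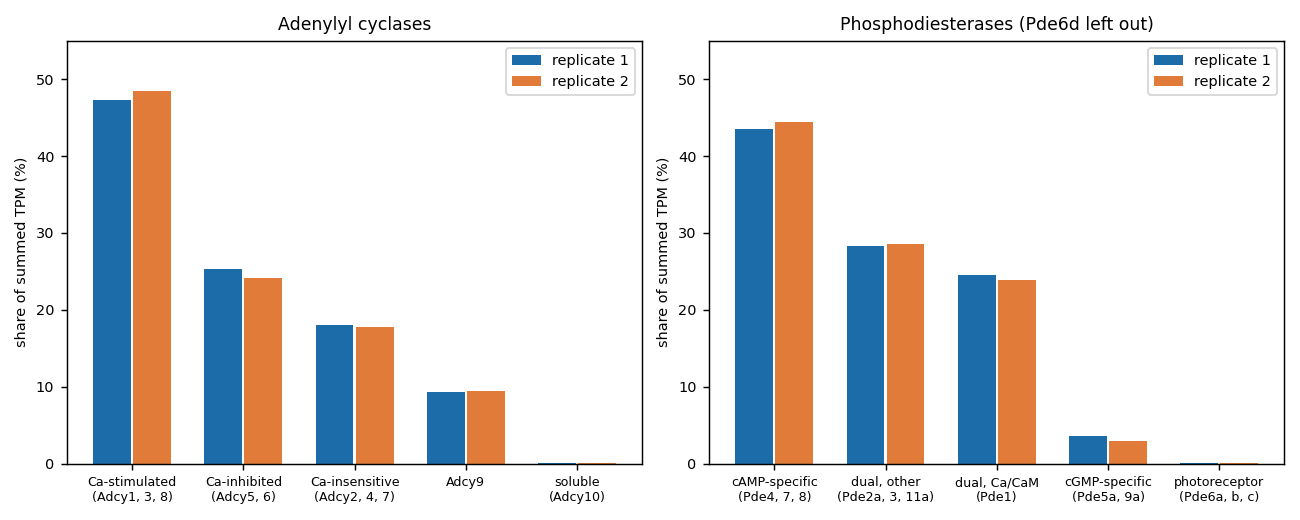
Share of summed TPM in percent, from 0, by regulatory class of adenylyl cyclase and by substrate class of phosphodiesterase, with replicate 1 and replicate 2 as neighbouring bars. Pde10a and Pde6d are not included. Calcium-stimulated cyclases (47.3% and 48.5%) and cAMP-specific phosphodiesterases (43.6% and 44.5%) are the tallest, and the soluble cyclase and the photoreceptor enzymes are close to 0.

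Phosphodiesterases, with Pde10a not included, summed to 624 ± 34.3 TPM, or 602 TPM without Pde6d, which binds prenyl groups and is no enzyme. Pde2a (ENSMUSG00000110195.1, chr7:101421691-101512827, plus strand), an enzyme for both nucleotides that cyclic GMP stimulates, led with 170 and 159 TPM, 26.4% ± 0.194 of the family. Next came Pde1b with 84.0 and 74.8 TPM, Pde8b with 71.8 and 64.4 TPM and Pde1a with 66.4 and 60.7 TPM. Pde1 enzymes are activated by calcium and calmodulin and cleave both nucleotides, whereas Pde8b has high affinity for cyclic AMP. Over all transcripts, Pde2a exceeded Pde1b 2.03-fold and 2.13-fold, while the ranges of Pde8b and Pde1a overlapped. Protein-coding transcripts held 54.5% and 52.9% of the TPM of Pde2a, against 89.97% and 91.2% for Pde1b. The lead of Pde2a over Pde1b was therefore smaller on those transcripts alone. In the read-based tables, Pde2a exceeded Pde1b 1.67-fold in each library over all transcripts. There, protein-coding transcripts held 87.6% and 81.2% for Pde2a, and 90.7% and 91.8% for Pde1b.

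The Pde4 enzymes are specific for cyclic AMP and are the targets of rolipram. Pde4d had 56.1 and 51.7 TPM, Pde4b had 52.2 and 52.8 TPM and Pde4a had 41.7 and 43.1 TPM. Pde4d and Pde4b changed places between the libraries, and Pde4a lay below both in each. Pde4c, the fourth gene of the family, had only 1.27 and 1.28 TPM, 41.1-fold and 41.3-fold below Pde4b. The coding sequences of the leading Pde4d and Pde4b transcripts were identical at 75.9% of aligned bases, those of Pde1b and Pde1a at 67.6%.

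Among the rest, Pde7b had 29.7 and 26.3 TPM and Pde7a had 17.1 and 15.1 TPM, both specific for cyclic AMP. Pde6d had 22.8 and 21.5 TPM. For cyclic GMP, Pde9a, the enzyme of highest affinity, had 13.6 and 10.7 TPM and Pde5a, the target of sildenafil, had 8.83 and 6.68 TPM. The families with a high and a low partner were far apart: Pde8b exceeded Pde8a (2.87 and 2.66 TPM) 25.02-fold and 24.2-fold, and Pde1b exceeded Pde1c (2.82 and 2.69 TPM) 29.8-fold and 27.8-fold. Pde3b, which cyclic GMP inhibits, had 3.95 and 3.14 TPM and Pde11a had 2.07 and 2.37 TPM. By substrate, cAMP-specific enzymes held 43.6% and 44.5% of catalytic phosphodiesterase TPM, Pde1 24.5% and 23.9%, the other dual-substrate enzymes 28.3% and 28.6%, and the cGMP-specific ones 3.58% and 3.00%. In the read-based tables the order of Pde1 (26.1% and 25.8%) and the other dual-substrate enzymes (24.6% and 24.3%) was the reverse. Catalytic phosphodiesterases together had 1.82 and 1.75 times the TPM of the cyclases. Pde10a is no member, so neither this ratio nor the shares by substrate include it.

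The anchoring proteins summed to 498 ± 14.4 TPM, with 13 of 16 at 1 TPM or more. Over all transcripts of each gene, Akap8l, a nuclear protein close to Akap8 in sequence (ENSMUSG00000002625.10, chr17:32321424-32350607, minus strand), led with 115 and 101 TPM. Akap6, which anchors PKA at the nuclear envelope, had 79.2 and 77.3 TPM. Akap11, which also binds glycogen synthase kinase, had 79.0 and 73.4 TPM, and its range overlapped that of Akap6. Akap8, next to Akap8l on the chromosome and nuclear too, had 49.0 and 47.1 TPM. Protein-coding transcripts held a mean of 20.9% of the TPM of Akap8l, and 24.8% and 28.6% of that of Akap8. For Akap6 they held 100% in each library, so Akap8l did not lead on protein-coding transcripts alone.

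Akap5, the scaffold that holds PKA and calcineurin at the postsynaptic density, had 42.9 and 40.0 TPM. Akap9, a large protein of the Golgi and centrosome, had 37.7 and 43.2 TPM over all transcripts and changed places with Akap5 between the libraries. Protein-coding transcripts held 60.9% and 49.9% of the TPM of Akap9, against 100% for Akap5. On those transcripts alone, Akap9 lay below Akap5 in both libraries. In the read-based tables too, Akap5 (73.8 and 72.4 TPM) lay above Akap9 (46.8 and 52.0 TPM). Akap7, an anchor with short membrane-bound forms, had 28.0 TPM in each library. Over all transcripts in the tables based on alignments, Akap7 lay below both Akap5 and Akap9 in each library. Read-based, Akap7 had 44.7 and 52.3 TPM and lay above Akap9 in replicate 2. Akap2 had 19.1 and 19.2 TPM, Akap1 at the outer mitochondrial membrane 16.5 and 17.01 TPM, Akap10 16.1 and 15.7 TPM, Akap13 11.3 and 12.3 TPM, Akap12 9.13 and 8.52 TPM, and Akap17b 5.64 and 5.25 TPM. The levels of neighbours in the order of each group, for members with a mean of at least 1 TPM, were apart without overlap of the libraries in 32 of 40 neighbouring pairs, and 4 pairs changed order.

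A mean below 1 TPM was found for 8 members. Akap4 and Akap14 had 0 counts in both libraries, and Akap3 had 0 counts in replicate 1 and 9 in replicate 2. Akap4 and Akap3 are known from the sperm tail, and of 7 male germ cell markers 5 (Prm1, Prm2, Tnp1, Tnp2, Acrv1) had 0 counts as well, with a summed level of 0.11 and 0.12 TPM. The catalytic photoreceptor enzymes Pde6a, Pde6b and Pde6c had between 0.02 and 0.20 TPM, on 2 to 10 counts each, although the read-based tables list Pde6a at 0.989 and 1.29 TPM. Among photoreceptor markers, Sag had 1.27 and 1.41 TPM, Rcvrn had 1.46 and 1.36 TPM and Crx had 0 counts; that list is not given in full. Pde3a, the cyclic GMP-inhibited enzyme of heart, platelets and oocytes, had 1.02 and 0.75 TPM. In bulk tissue, fewer cells of a type and less RNA per cell cannot be told apart.

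Genes that act with the members but do not carry their symbols were taken from 7 lists with 58 genes, of which 42 reached 1 TPM in both libraries. All 7 G protein alpha subunits of the list did: Gnas, which stimulates cyclases, had 801 and 792 TPM. Gnao1, of the inhibitory class, had 339 and 314 TPM, Gnai2 92.0 and 91.2 TPM, and the lowest, Gnai3, 12.5 and 12.2 TPM. Of 12 guanylyl cyclase and natriuretic peptide receptor genes 7 were detected, led by the subunits of the nitric oxide-sensitive enzyme. Gucy1b1 had 77.8 and 68.4 TPM, Gucy1a2 41.5 and 39.1 TPM, Gucy1a1 40.2 and 35.2 TPM, and Gucy2d was lowest at 0.03 TPM in each library.

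Among other effectors, 4 of 12 were detected. Rapgef4 and Rapgef3, the exchange factors that cyclic AMP activates without PKA, had 180 and 189 TPM and 22.9 and 21.5 TPM, and the cyclic GMP kinase Prkg1 had 8.96 and 9.37 TPM. The channel genes Cnga1 and Cngb3 had 0 counts in both. Within the PKA inhibitor list all 4 genes were detected: Pkia had 74.96 and 67.1 TPM, Pkig 58.3 and 55.3 TPM, Pkib 6.87 and 6.15 TPM, and the related kinase Prkx, the lowest, 5.09 and 4.99 TPM. Inhibitor RNA was thus present beside the catalytic subunits, at a summed level, Prkx included, of 145 and 134 TPM against 326 and 289 TPM for the catalytic subunits.

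Of 11 anchoring proteins without the Akap symbol, 10 were detected. Map2, the dendritic microtubule protein, had 486 and 483 TPM, above every Akap member, followed by Wasf1 with 112 and 106 TPM and Sphkap with 71.6 and 75.3 TPM, while Rab32 had 0.79 and 0.67 TPM. All 7 transcription factors and coactivators were detected, led by Crtc1 (65.2 and 65.6 TPM), Creb3 (36.7 and 31.9 TPM) and Creb1 (23.99 and 23.8 TPM), with Crtc3 lowest (7.34 and 7.06 TPM). Of 5 accessory genes 3 were detected: Pde4dip, a scaffold that binds Pde4d, had 106 and 105 TPM, the cyclic AMP exporter Abcc4 5.37 and 4.70 TPM, and Pde12, which cleaves oligoadenylates despite its name, 4.10 and 4.08 TPM. Pde6g was lowest by the mean, with 0.48 TPM in each library, though Pde6h was listed at 0.11 and 1.28 TPM.

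The libraries were compared on expected counts scaled by the trimmed mean of M values (TMM), as the ratio of replicate 2 over replicate 1 with an exact Clopper-Pearson 95% interval. With 1 library a side this has no replicate check and the interval covers counting error only. Of the 53 members, 47 had a mean count of at least 10. The interval lay wholly beyond 2-fold for 0 of these 47, against 0.307% of all 18552 genes tested. For 9 members, 19.1%, it excluded equality, against 15.1% of all genes tested and 17.6% of genes whose mean count fell in the members' middle range, between their quartiles. The 19.1% is over all 47 members, those outside that range included, so the 17.6% matches them for counts only in part. The members' share was therefore near the background, and their median ratio was 0.989, against 0.999 over all genes tested. Scaled counts and TPM need not move together, because TPM is a share that abundant short RNAs and the estimated transcript lengths also set: Prkar1b had a lower TPM but a higher scaled count in replicate 2.

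In replicate 2, 5 members were higher, against a background of 8.18%. Akap13 had 1701 counts in replicate 1 and 1941 in replicate 2, a ratio of 1.12 (1.05 to 1.20). Pde4a had 3117 and 3500 counts, a ratio of 1.11 (1.05 to 1.16). Prkar2a had 1930 and 2098 counts, a ratio of 1.07 (1.01 to 1.14). The ratios of Adcy1 and Prkar1b were 1.06 and 1.03. Adcy1 had 31514 and 33912 counts, so many that a ratio this close to equality lies outside counting error. Among the 45 members that averaged 100 counts or more, the ratios ran from 0.823 for Adcy4 to 1.14 for Pde1c, and for both of these the interval included equality.

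In the other direction, 4 members were lower in replicate 2, against a background of 6.89%. Pde1b had 4828 counts in replicate 1 and 4480 in replicate 2, a ratio of 0.914 (0.878 to 0.953). Adcy5 had 8378 and 8089 counts, a ratio of 0.951 (0.923 to 0.981). Prkacb had 15054 and 14585 counts, a ratio of 0.955 (0.933 to 0.977), and Prkar1a had a ratio of 0.974. With libraries scaled to total counts instead, the split was 3 higher and 9 lower, of which 7 were the same genes. These are 12 of 47 members, against 16.2% of all genes tested under that scaling, in either direction. The background of 6.89% belongs to TMM scaling. With total counts, the intervals of Prkar1b and Prkar2a no longer excluded equality, and Pde2a, Pde7b, Pde8b, Akap11 and Prkar2b were added as lower.

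Pde1b and Adcy5 are known as abundant in striatal projection neurons, which lie beneath the cortex. Of 12 markers of those neurons, 11 had enough counts and 10 of these were lower in replicate 2, with a median ratio of 0.799 and a summed level of 375 TPM in replicate 1 and 291 TPM in replicate 2. Drd1 had 22.9 and 14.9 TPM and Ppp1r1b had 110 and 88.8 TPM. None of the 12 had 0 counts in both libraries. The markers moved in the same direction as Pde1b and Adcy5 and by more; their part in the differences of these members was not tested. Pde7b, also known from the striatum, had a ratio of 0.958 with an interval that included equality. Gnal, the stimulatory G protein of striatal neurons, named here after its values were seen, had 86.9 and 76.3 TPM and was lower too.

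**Figure D3:**
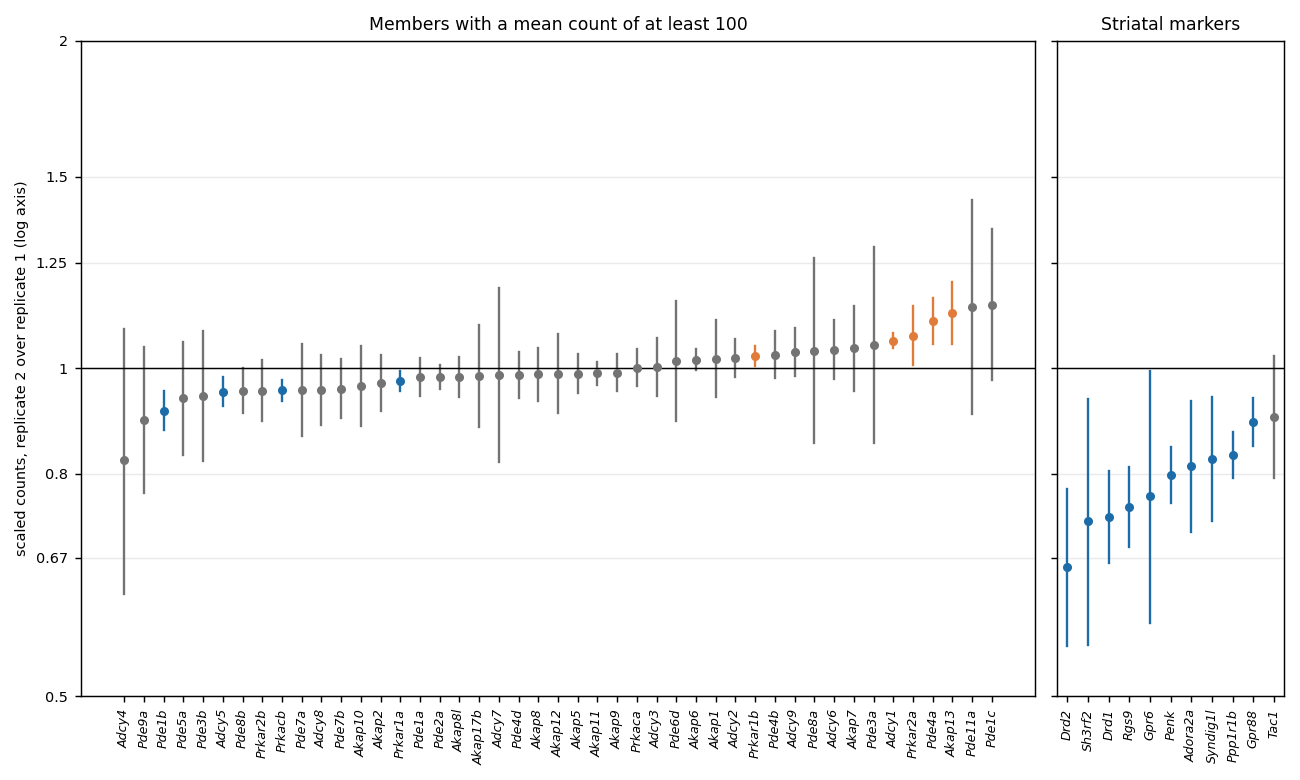
Scaled counts of replicate 2 over replicate 1 on a log axis for the 45 members that averaged 100 counts or more and for 11 striatal markers, with exact Clopper-Pearson 95% intervals that cover counting error only. Grey marks intervals that include 1, orange those above and blue those below. The 45 members lie between 0.823 and 1.14, whereas 10 of the 11 markers lie below 1 with their whole interval.

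The tissue itself carried its defining genes: all 6 markers of cortical neurons were detected, with summed levels of 2703 and 2613 TPM, 2 higher and 1 lower in replicate 2. Glial lists were present as well. Oligodendrocyte markers summed to 590 and 642 TPM with 3 of 5 higher in replicate 2, astrocyte markers to 919 and 898 TPM with 2 of 4 higher, and microglial markers to 76.2 and 76.0 TPM with 0 of 4 apart. The remaining lists are of vascular, meningeal and choroid plexus cells. Mural cell markers summed to 68.1 and 60.1 TPM with 2 of 7 lower, fibroblast and meningeal markers to 86.7 and 64.1 TPM with 1 of 6 higher and 3 lower, and choroid plexus markers to 10.6 and 39.1 TPM with 1 of 4 tested higher, Ttr at 6.12 and 34.3 TPM. The part of these cells in the members' differences was not tested. Over the 58 pathway genes, 51 had enough counts, and 10 were higher (19.6%, against 8.18% of all genes tested) and 6 lower (11.8%, against 6.89%) in replicate 2. Together these are 31.4%, against 15.1% of all genes tested, and 0 lay beyond 2-fold. The interval narrows as counts rise, so genes with many counts leave equality more readily. No background matched for counts is given for the pathway genes. Their higher share is therefore not read as a difference of the pathway between the libraries.

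Transcripts were followed for the 35 members with a mean of at least 10 TPM, which have a median of 7 annotated transcripts each and as many as 28. The leading transcript was protein-coding for 31 of them. It held at least 90% of the gene's TPM for 7 members, Adcy1, Adcy2, Adcy5, Prkaca, Prkar1b, Prkar2a and Pde6d, and under 50% for 14. The share in protein-coding transcripts had a median of 91.1%, with a lowest value of 20.9%, that of Akap8l. For Akap8l and Pde7a the leading transcript was typed as retained intron, with 17.2% and 24.3%, and for Pde2a and Akap8 as subject to nonsense-mediated decay, with 30.7% and 13.2%. Akap8-213 led by the mean of the libraries and in neither library alone. Total RNA includes unspliced and nuclear RNA, so a gene's TPM here is not the level of its coding message alone.

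The second transcript held at least 25% for 7 members. Akap6 was split almost evenly, with 50.4% in Akap6-201 and 49.6% in Akap6-202. For Adcy9 the second held 39.4%, for Pde4a 36.6%, for Prkar2b 33.4%, for Akap5 30.6% and for Pde2a 27.3%; Prkacb has been described. All 7 second transcripts were protein-coding. Each of these genes thus had its TPM spread over more than 1 main transcript, as far as the alignment-based tables resolve transcripts. The levels were not always close: the leading transcript held 67.8% for Akap5 and 62.9% for Prkar2b. For Pde2a, Pde2a-204 held a further 24.8%. Shares could also differ between the libraries: Akap1-201, named here after its values were seen, held 93.5% in replicate 1 and 56.9% in replicate 2, although its read-based shares were 66.8% and 59.1%. With each library taken alone, the leading transcript was another one in replicate 2 than in replicate 1 for 4 of the 35 members, Akap6, Pde8b, Akap8 and Adcy6.

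The deposited read-based tables named the same leading transcript for 27 of the 35 members. In the 8 others the shares depended on the method. Prkar1b-201 held 93.2% alignment-based and 20.8% read-based, where Prkar1b-203 led with 38.96%. Prkar1a-201 held 69.8% and 3.55%, where Prkar1a-203 led with 91.2%. For both genes the transcripts that led in one or the other quantification have the same coding sequence and differ in where they start. Prkar1b-204 held a further 30.1% of Prkar1b read-based. At 918 bases it is shorter than that coding sequence of 1143 bases, so the Prkar1b shares do not concern starts alone. In the remaining 6 the coding sequence or the transcript type differed: Pde2a-204 led with 39.7% in place of Pde2a-209, Adcy9-203 with 48.4% in place of Adcy9-202, Akap7-204 with 36.5% in place of Akap7-203, Pde8b-207 with 25.04% in place of Pde8b-211, Pde9a-211 with 23.7% in place of Pde9a-203, and Akap8-215 with 21.6% in place of Akap8-213. The order of the members by gene level was similar in both quantifications. Spearman's rank correlation between them was 0.996 across the 53 members, and 40 members kept their rank in their group. The members are not independent replicates and share the same reads. No such correlation was computed for transcript shares. Read-based gene TPM was 1.22 to 2.10 times the alignment-based TPM for members with a mean of at least 1 TPM.

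**Figure D4:**
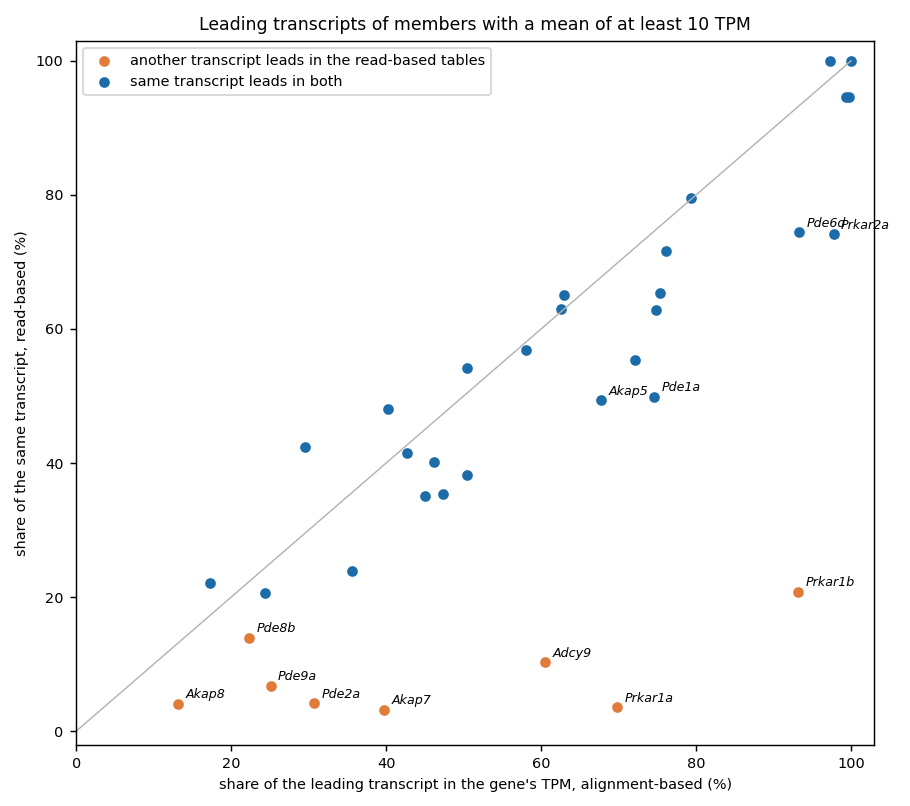
Share in percent of the leading transcript in its gene's TPM in the alignment-based tables (x axis) and of the same transcript in the read-based tables (y axis), mean of both libraries, for 35 members. Points on the diagonal have equal shares. The 27 blue points lead in both quantifications, and the 8 orange points, among them Prkar1b and Prkar1a, fall far below the diagonal or lie at low shares.

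Prkar1a thus has alternative starts whose use these tables do not settle. The windows below come from RefSeq's promoter table (GRCm38.p6, 250 bases before to 50 after a start), and capitals mark the cyclic AMP response element TGACGTCA, to which CREB proteins bind, or its shorter core CGTCA.
Prkar1a, start near Prkar1a-201, chr11:109650880-109650927, plus strand: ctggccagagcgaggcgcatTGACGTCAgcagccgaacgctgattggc
Prkar1a, start near Prkar1a-203, chr11:109649192-109649236, plus strand: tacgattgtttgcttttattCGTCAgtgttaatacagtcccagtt
The full element begins 49 bases before the RefSeq start near Prkar1a-201, and the core 151 bases before the start near Prkar1a-203. RefSeq windows were found for 43 members, 84 in all, and were searched on both strands. TGACGTCA was in windows of 1 member, Prkar1a, 2.33% of those with a window, against 2.03% of all 27025 genes with one. TGACG or CGTCA, which every full element also contains, was found for 15 members, 34.9%, against 23.0% of genes, but in 20.2% of the members' windows, against 20.8% of all windows. A match is a description of these letters and not a measured binding site.

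Some members share sequence with a neighbour on the same strand, so their counts are uncertain to that degree. Akap2 shares 84.4% of its exonic bases with Pakap (8.54 and 8.47 TPM), and the deposited posterior standard deviation of its count was at most 3.73% of the count in either library. Pde2a shares 64.3% with Gm45837 (0.66 and 1.44 TPM), with a posterior standard deviation of at most 0.726% of its count, and Prkar1b shares 8.95% with Gm15672. Exons of 11 members overlap a gene on the opposite strand, in 12 pairs, the widest being Adcy3 with Cenpo at 22.1% of exonic bases. Whether counting used the strand is not stated in the sources used here, so reads of such overlaps may not be told apart.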

How the data were processed

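Total RNA libraries of 1 group were analysed, 1 per replicate. Per the deposited lists of files, the authors derived expected counts and TPM per gene and transcript from transcriptome alignments (alignment-based), and estimated counts and TPM per transcript from reads and an index (read-based), on mm10 with GENCODE M21. The sources used here do not give the tools. A deposited column, by its header a posterior standard deviation of the count, was used as another measure. CAST/EiJ reads were quantified against the C57BL/6J reference, and abundant short RNAs lower the TPM of other genes.

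Group sums, shares and ranks use gene TPM as mean ± SD over the libraries. Expected counts were rounded. Genes that averaged 10 counts or more entered TMM scaling (edgeR 4.0.16 under R 4.3.3), and replicate 2 came out at 1.01 times the size of replicate 1. Ratios have a prior count of 0.5 and exact Clopper-Pearson 95% intervals. Since PCR copies of a molecule cannot be told apart, intervals and floors describe counting error and nothing more. A chi-square test over genes (71576 on 12842 degrees of freedom) gave a spread above Poisson counting noise. The part of PCR copies in that spread was not tested, so the test does not tell whether the libraries are separate animals. The libraries were counted as 2 samples because the labels do so. No p-value is given, since there is 1 group. The interval rule was tested on simulated data. Paralogs were compared on coding sequences of GENCODE M21.

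Members, the 7 pathway lists and 10 marker lists were chosen with earlier results of these data known; the photoreceptor list is not reported here in full. By rule, each member with a mean of at least 1 TPM is named with its values, ratios have intervals for the 3 highest and 3 lowest that exclude equality, and pathway lists give their 3 highest and lowest genes. Alternatives covered scaling with DESeq2 1.42.0, total counts and spike-ins, filters on low values, the read-based tables, another TPM denominator and each replicate left out.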

Additional observations from a re-analysis of the deposited data

How the results depend on the processing

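No paired analysis was possible because the series has only 1 group. Of 64 alternative values, 50 moved by less than the SD between the libraries or, for counts, by less than 1.5 times, and 14 moved further. Many of the 50 could not have moved further. With 2 libraries, leaving 1 out always shifts a sum or share by less than their SD. The share of a leading gene in its group cannot change with the TPM denominator. The 50 are therefore no measure of stability. With the read-based tables, summed TPM was 503 for cyclases, 953 for phosphodiesterases, 585 for catalytic subunits, 1071 for regulatory subunits and 748 for anchoring proteins; with TPM over nuclear protein-coding genes alone, it was 743, 1375, 676, 1419 and 1097 in the same order. The second setting changes by construction what TPM is a share of; for the first the cause was not tested. Read-based shares of the leading gene were 22.5% for Pde2a, 70.9% for Prkacb, 58.7% for Prkar1b and 18.9% for Akap8l, and the cause was not tested. Members detected numbered 43 to 46 under all settings. Members beyond counting error numbered 9 of 47 with DESeq2 size factors or spike-ins, against 15.1% and 15.3% of all genes tested. With no filter they numbered 10 of 51, against 10.7%, and at a mean count of 50 they numbered 10 of 46, against 17.3%. Read-based, they were 11 of 49, 8 of them shared, against 14.0%, and with total counts 12 of 47, against 16.2%. Beyond 2-fold were 0 under any setting, against 0.124% to 0.307% of all genes. At 1.5-fold there were also 0, against 0.480%. The leading transcript was the same for 25 and 27 of 35 members leaving out replicate 1 and replicate 2, for 35 of 45 at 1 TPM and for 26 of 35 over protein-coding transcripts. The read-based and alignment-based TPM of a member differed by a median of 1.59-fold. Depth limits the 6 members under a mean count of 10.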
